A study of Mus musculus with 8 samples.

Results

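The 9 uterine genes described here, of 24963 in the table, are Gata2, Sox17, Alox15, Acod1, Il13ra2, Fkbp4, Fkbp5, Tsc22d3 and Sgk1. They were taken by symbol, as known targets of progesterone and known cochaperones of its receptor in the mouse uterus, and all 9 were found. RNA of the uterus at gestation day 3.5 (GD3.5) was sequenced from 4 Nr2f2 f/f mice and 4 Nr2f2 d/d mice, 1 library per mouse. Both groups carried floxed Nr2f2 alleles, were labelled C57B6/J and 8 weeks old, and had been mated with vasectomized males, so the uterus held no embryo. The Nr2f2 f/f mice, called WT in the labels, had no Cre. The Nr2f2 d/d mice were Pgr Cre/+; their Cre sits in 1 allele of the progesterone receptor gene Pgr and acts in the cells that use that gene, so the loss of Nr2f2, the presence of Cre and the loss of 1 intact Pgr allele cannot be told apart. The values are FPKM, fragment counts divided by gene length and library size, and per-mouse values follow the order of replicates 1 to 4.

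Progesterone acts through PGR, a receptor that becomes a transcription factor once it binds the hormone. Before that it is held by the chaperone Hsp90 together with cochaperones, among them the FK506-binding proteins that Fkbp4 and Fkbp5 encode. In early pregnancy the hormone turns the uterine epithelium and then the stroma receptive, and the epithelial signal Ihh reaches the stroma, where Nr2f2, which encodes a nuclear receptor, is induced. Gata2 and Sox17 are transcription factors of the epithelium, Alox15, Acod1 and Il13ra2 are genes that progesterone raises there, and Tsc22d3 and Sgk1 respond to corticosteroids as well as to progesterone in many tissues.

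The targeted gene followed the labels. Nr2f2 was at 25.3, 21.8, 25.7 and 23.5 FPKM in the Nr2f2 f/f uteri and at 9.66, 9.42, 6.90 and 9.74 FPKM in the Nr2f2 d/d uteri, a log2 fold change of -1.39 (adjusted p = 0.00549, limma with Benjamini-Hochberg adjustment over 14323 genes). Library totals, recovered from the steps of the FPKM, ran from 61150000 to 92250000 fragments. Each of the 9 genes rested on an estimated 1510 fragments or more in every library. The estimate takes gene lengths from GENCODE vM21, which may differ from those behind the deposited values. Nr2f2 f/f replicate 2 and Nr2f2 d/d replicate 3 stood apart: their log2 values correlated with the mean of the other 3 of their group at 0.95 and 0.967 across genes, against 0.973 to 0.99 in the other 6 libraries. Values of the 9 genes without these libraries are given where they alter a result. Epithelial markers were higher in Nr2f2 d/d, with summed levels of 1160 to 1260 FPKM against 847 to 924, and endothelial markers lower, with 132 to 162 against 203 to 284.

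Il13ra2, Fkbp5, Tsc22d3 and Acod1 had lower log2 means in Nr2f2 d/d and the other 5 genes higher ones, and limma gave 0 of the 9 an adjusted p under 0.05, where 2.62% of all genes tested did. Of their log2 fold changes 5 lay above 0 and 4 below, with a median log2 fold change of 0.135 against -0.0191 over all genes tested. Il13ra2 alone had an unadjusted p under 0.05, a share to be read against the 21.2% of all genes that did, and alone met the threshold of the study's methods, an unadjusted p under 0.05 with a fold of at least 1.4, which 8.80% of all genes tested met, 4.10% as lower and the rest as higher in Nr2f2 d/d. Il13ra2 met that threshold in only 3 of the 8 fits that left out 1 library, and not without the 2 libraries that stood apart. The exact permutation test gave 0 of the 9 genes a p under 0.05, and 0 of the 9 had groups that did not overlap, a pattern found in 15.4% of all genes tested. Mouse to mouse spread was wide in these genes. The standard deviation of log2 level within a genotype had a median of 0.678 over the 9, against 0.181 over all genes tested, and all 9 lay above that median.

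**Figure D1:**
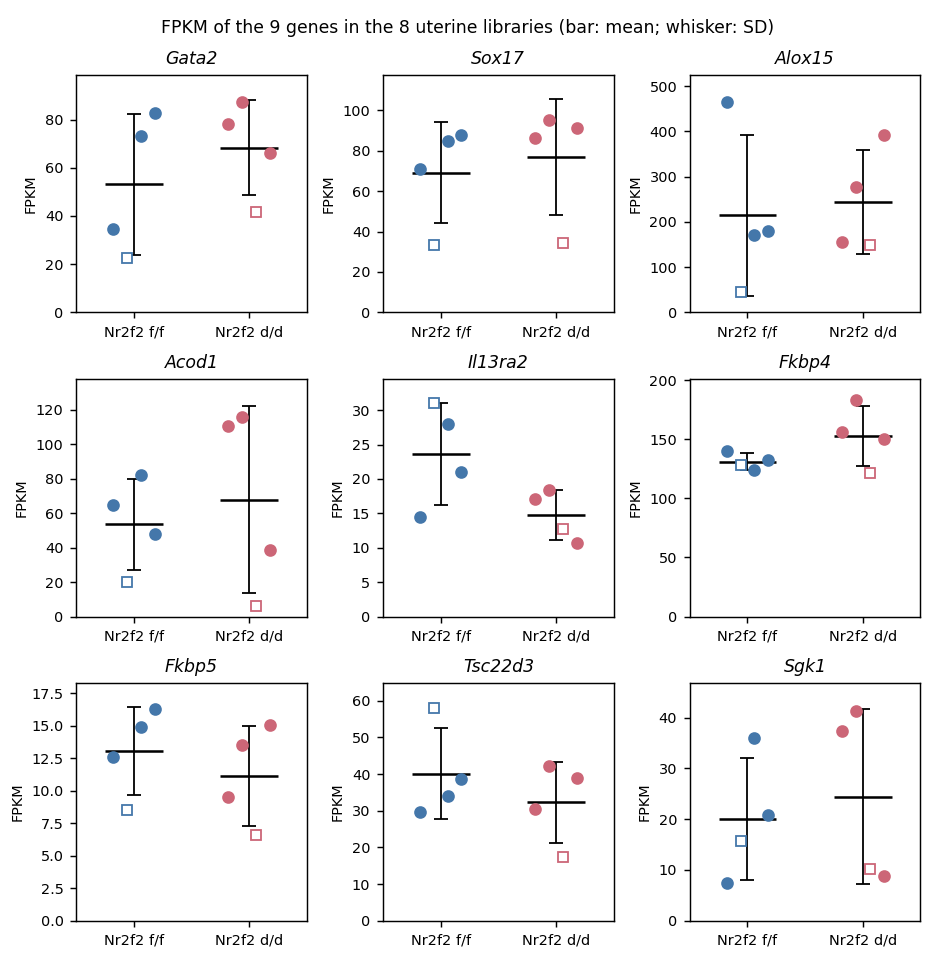
FPKM of the 9 genes in each library, with 4 Nr2f2 f/f (blue) and 4 Nr2f2 d/d (red) mice in replicate order from left to right; bars are means, whiskers SD, and open squares mark Nr2f2 f/f replicate 2 and Nr2f2 d/d replicate 3. The groups overlap in every panel, and in Sox17 the open squares, at 33.1 and 34.1 FPKM, lie below all other points.

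Gata2 encodes a zinc-finger factor that acts upstream of and together with PGR in the epithelium, and lies on the plus strand of mm10 at chr6:88193891-88207032. Its mRNA abundance was 34.6, 22.4, 73.3 and 82.5 FPKM in the Nr2f2 f/f uteri and 78.1, 87.3, 41.7 and 66.3 FPKM in the Nr2f2 d/d uteri. The Nr2f2 f/f mice fell into a low pair and a high pair, and 3 of the 4 Nr2f2 d/d values lay inside their range. Means were 53.2 ± 29.2 and 68.3 ± 19.8 FPKM (SD, n = 4 each), with a log2 fold change of 0.50 and a 95% interval of -0.49 to 1.48 (adjusted p = 0.543, limma). An interval of this width reaches from a fold of 0.710 to one of 2.80.

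Sox17, which encodes an HMG-box factor needed for implantation and for uterine glands and also made in endothelium, lies on the minus strand at chr1:4490931-4497354. It was at 71.0, 33.1, 85.0 and 87.7 FPKM in the Nr2f2 f/f uteri and at 86.2, 95.1, 34.1 and 91.4 FPKM in the Nr2f2 d/d uteri. A single mouse of each genotype was low and the other 6 lay between 71.0 and 95.1 FPKM. The log2 fold change was 0.13 with a standard error of 0.413 (adjusted p = 0.880, limma). Without both low libraries it was 0.17 with a standard error of 0.0966, and its 95% interval of -0.07 to 0.40 still held 0. In GENCODE vM21, 16.8% of the exon bases of Sox17 are shared with Gm37587 on the opposite strand. How fragments there were counted is not known. The annotation and strand setting of the counting are not given in the sources used here.

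Alox15, the gene of the 12/15-lipoxygenase that oxidizes arachidonic acid, had the highest mean FPKM of the 9, though not the highest value in Nr2f2 f/f replicate 2 and Nr2f2 d/d replicate 1, where Fkbp4 exceeded it (minus strand, chr11:70344152-70352031). The Nr2f2 f/f uteri held 465, 44.2, 170 and 179 FPKM, and the Nr2f2 d/d uteri held 156, 278, 149 and 393 FPKM. The Nr2f2 f/f mice alone spanned a 10.5-fold range that contained every Nr2f2 d/d value. Its log2 fold change was 0.50 (95% interval -1.02 to 2.02, adjusted p = 0.702, limma) and 0.09 without Nr2f2 f/f replicate 2 and Nr2f2 d/d replicate 3. Eosinophils also make Alox15 transcripts, and the summed level of 8 eosinophil markers was at most 2.79 FPKM in any library, and Ear1 was at 0 in all.

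Acod1 encodes the mitochondrial enzyme that makes itaconate, is induced in activated macrophages, and in the uterine epithelium follows progesterone. The gene lies on the plus strand at chr14:103046977-103056573. It held 64.5, 20.1, 82.2 and 47.7 FPKM in the Nr2f2 f/f uteri and 110.6, 116.0, 6.24 and 38.5 FPKM in the Nr2f2 d/d uteri. The Nr2f2 d/d mice differed among themselves by 18.6-fold, with 2 above and 1 below all Nr2f2 f/f mice. No other of the 9 genes had a larger spread, and 99.6% of all genes tested had a smaller one. Means were 53.6 ± 26.4 and 67.8 ± 54.2 FPKM (SD, n = 4 each), higher in Nr2f2 d/d, while the log2 fold change had the opposite sign, at -0.16 (95% interval -2.24 to 1.92, adjusted p = 0.936, limma), and it was 0.73 without Nr2f2 d/d replicate 3 and 0.10 without Nr2f2 f/f replicate 3. Without both libraries that stood apart it was 0.32 (adjusted p = 0.693, limma). Of 8 macrophage markers tested, 0 passed the adjusted threshold and 1 had an unadjusted p under 0.05, against 2.62% and 21.2% of all genes tested. Summed macrophage marker levels were 227 to 475 FPKM in the Nr2f2 f/f uteri and 374 to 647 in the d/d uteri. The neutrophil marker sums were 3.06, 3.26, 16.9 and 9.79 FPKM in the Nr2f2 f/f uteri and 40.3, 18.1, 42.1 and 21.4 FPKM in the Nr2f2 d/d uteri, and the part of either cell type in the Acod1 levels was not tested.

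Il13ra2 encodes the decoy receptor that binds interleukin 13 without passing on its signal (minus strand, chrX:147383476-147429192). Its levels were 14.5, 31.0, 28.0 and 21.0 FPKM in the Nr2f2 f/f uteri and 17.1, 18.4, 12.7 and 10.7 FPKM in the Nr2f2 d/d uteri. The Nr2f2 f/f replicates 2, 3 and 4 were above all Nr2f2 d/d mice, and replicate 1 lay among them. Means were 23.6 ± 7.36 and 14.7 ± 3.63 FPKM (SD, n = 4 each). The log2 fold change was -0.64 (95% interval -1.23 to -0.04), with an unadjusted p of 0.0382 and an adjusted p of 0.211 in limma's test. The two-sided exact permutation test gave p = 0.114. The unadjusted p rose past 0.05 without Nr2f2 f/f replicate 2, 3 or 4 and without Nr2f2 d/d replicate 3 or 4, up to 0.0993, and was 0.178 without both libraries that stood apart (limma). The log2 fold change lay between -0.85 and -0.49 with any 1 library left out (adjusted p = 0.136 to 0.335, limma), and it was -0.44 without both libraries that stood apart (adjusted p = 0.394, limma). Whole tissue was measured, so fewer cells of a type and less RNA per cell cannot be told apart.

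The 5 epithelial genes were also set against the 12 epithelial markers of the same library. The mean of log2(FPKM + 0.5) over the markers lay at 5.46 to 5.74 in the Nr2f2 f/f uteri and at 5.97 to 6.38 in Nr2f2 d/d, a difference of 0.57 (two-sided exact permutation p = 0.0286, the smallest that 4 against 4 allows). Log2 fold changes of single markers ran from 0.008 for Cldn3 to 1.43 for Elf3, so a value set against their mean depends on the markers chosen. Per unit of marker, Il13ra2 was lower in all 4 Nr2f2 d/d mice, with a log2 difference of -1.21 between the means (-1.09 ± 0.503 for Nr2f2 f/f and -2.29 ± 0.347 for Nr2f2 d/d, SD, n = 4 each, exact permutation p = 0.0286). On this measure 57.1% of all genes tested had groups that did not overlap, with 56.7% lower in Nr2f2 d/d, so the pattern is not particular to Il13ra2. Without any 1 library the Il13ra2 difference lay between -1.45 and -1.09, with an exact permutation p of 0.0571, the smallest that 3 against 4 allows. Gata2, Sox17, Alox15 and Acod1 differed by -0.07, -0.43, -0.07 and -0.73 on the log2 scale, with exact permutation p of 0.943, 0.486, 0.943 and 0.657.

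Fkbp4 encodes FKBP52, the cochaperone that keeps PGR competent to bind progesterone (minus strand, chr6:128429735-128438677). It was at 140.2, 127.9, 123.8 and 132.9 FPKM in the Nr2f2 f/f uteri and at 156.2, 183.3, 121.2 and 150.5 FPKM in the Nr2f2 d/d uteri. Nr2f2 d/d replicates 1, 2 and 4 were above all Nr2f2 f/f mice and replicate 3 was below them all. This was the steadiest of the 9 genes, with a log2 standard deviation of 0.181, and 50.2% of all genes tested had a smaller one. Its log2 fold change of 0.21 (95% interval -0.08 to 0.49, adjusted p = 0.371, limma) had the narrowest interval of the 9. Without Nr2f2 f/f replicate 2 and Nr2f2 d/d replicate 3 it was 0.30 with an interval of 0.06 to 0.54, which no longer held 0, while the adjusted p was 0.143 (limma). It was 0.05 with quantile normalization (adjusted p = 0.859) and 0.11 without Nr2f2 d/d replicate 2 (adjusted p = 0.655, both limma).

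Fkbp5 encodes FKBP51, which lowers the hormone affinity of steroid receptors and is itself induced by them (minus strand, chr17:28399094-28517527). The gene was at 12.6, 8.54, 14.9 and 16.3 FPKM in the Nr2f2 f/f uteri and at 9.49, 13.5, 6.58 and 15.1 FPKM in the Nr2f2 d/d uteri. Only replicate 3 of the Nr2f2 d/d mice lay outside the Nr2f2 f/f range. The log2 fold change was -0.25 (95% interval -0.89 to 0.40, adjusted p = 0.652, limma). In every uterus the Fkbp4 level exceeded that of Fkbp5, by 11.1, 14.99, 8.33 and 8.17 times in the Nr2f2 f/f uteri and by 16.5, 13.6, 18.4 and 9.99 times in the Nr2f2 d/d uteri. The within-library log2 ratio of Fkbp5 to Fkbp4 averaged -3.32 ± 0.396 in the Nr2f2 f/f uteri and -3.77 ± 0.364 in Nr2f2 d/d (SD, n = 4 each), and this difference of -0.45 did not pass the two-sided exact permutation test (p = 0.171).

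Tsc22d3 encodes GILZ, a leucine zipper protein that corticosteroids induce (minus strand, chrX:140539528-140600659). Levels of 29.7, 58.1, 34.1 and 38.7 FPKM were measured in the Nr2f2 f/f uteri and of 30.6, 42.2, 17.5 and 39.0 FPKM in the Nr2f2 d/d uteri. The highest value belonged to Nr2f2 f/f replicate 2 and the lowest to Nr2f2 d/d replicate 3. With all libraries the log2 fold change was -0.34 (95% interval -1.03 to 0.36, adjusted p = 0.557, limma). Without both of them it was 0.12 (adjusted p = 0.651, limma), so the sign rests on the libraries that stood apart.

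Sgk1 encodes a kinase that controls sodium transport across the uterine epithelium (plus strand, chr10:21882184-21999903). The Nr2f2 f/f mice held 7.44, 15.8, 35.9 and 20.9 FPKM, and in Nr2f2 d/d mice levels of 37.3, 41.2, 10.3 and 8.86 FPKM were measured. Nr2f2 d/d replicates 1 and 2 were above all Nr2f2 f/f mice, and the other two were below 3 of them. The log2 fold change was 0.17 (95% interval -1.28 to 1.61, adjusted p = 0.905, limma) and took the opposite sign when Nr2f2 f/f replicate 1 was left out (-0.22), as it did for Nr2f2 d/d replicate 1 (-0.14) and replicate 2 (-0.19). Without both libraries that stood apart it was 0.42 (adjusted p = 0.763, limma).

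**Figure D2:**
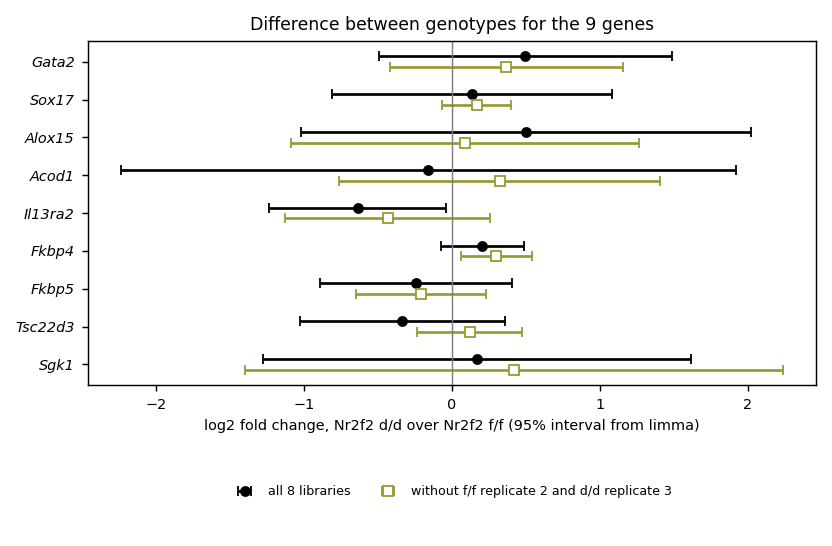
Log2 fold change of Nr2f2 d/d over Nr2f2 f/f for the 9 genes, with 95% intervals from limma, over all 8 libraries (filled circles) and without Nr2f2 f/f replicate 2 and Nr2f2 d/d replicate 3 (open squares). Over all libraries only the interval of Il13ra2 leaves out 0, and without the 2 libraries only that of Fkbp4 does.

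The 2 libraries that stood apart carried much of the low end. Nr2f2 d/d replicate 3 was the lowest of its group for 7 of the 9 genes, Gata2, Sox17, Alox15, Acod1, Fkbp4, Fkbp5 and Tsc22d3, and the highest for 0, while it was the lowest for 32.9% and the highest for 33.2% of all genes tested. Nr2f2 f/f replicate 2 was the lowest of its group for Gata2, Sox17, Alox15, Acod1 and Fkbp5, as for 40.3% of all genes, and the highest for Il13ra2 and Tsc22d3. The low values were not particular to the 9 genes. Among other epithelial targets of progesterone, Ihh, Areg, Lrp2 and Hdc were also the lowest of their group in both libraries. Cyp26a1 was instead the highest of its group in Nr2f2 f/f replicate 2, and Muc1 in Nr2f2 d/d replicate 3. Gland markers were also far apart in Nr2f2 f/f replicate 2, in both directions. Prss28, Prss29 and Spink1 were there at 509.7, 1444 and 1332 FPKM, the highest of all 8 libraries. Foxa2, Cxcl15, Wfdc3 and Lif, at 3.24, 1.18, 5.60 and 0.647 FPKM, were the lowest of all 8. In Nr2f2 d/d replicate 3 all 7 gland markers lay within the range of the other Nr2f2 d/d mice. At the other end, Nr2f2 d/d replicate 2 was the highest of its group for 7 of the 9 genes, against 16.3% of all genes tested. The part of these libraries' cell makeup in the values was not tested.

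**Figure D3:**
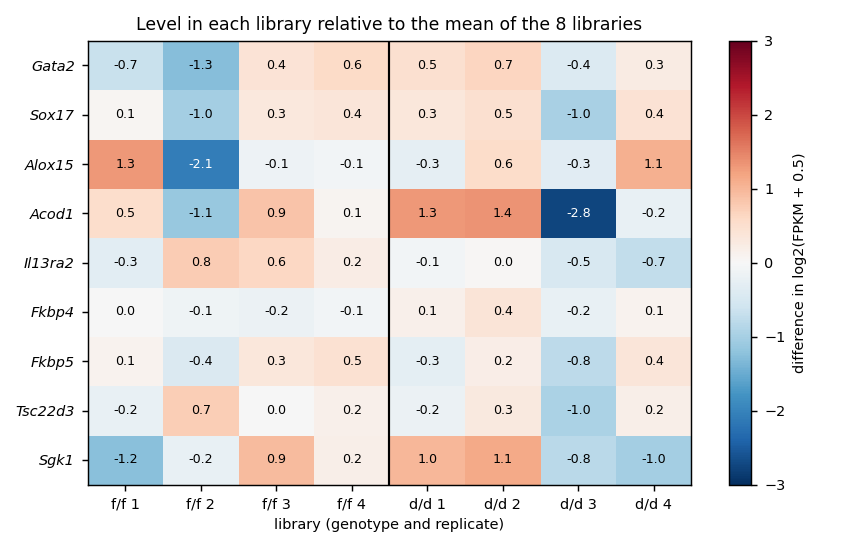
Level of each of the 9 genes in each library as the difference from the gene's mean over the 8 libraries, in log2(FPKM + 0.5), blue for lower and red for higher; the black line separates Nr2f2 f/f from Nr2f2 d/d. Nr2f2 f/f replicate 2 is red for Il13ra2 and Tsc22d3 and blue for the other 7, and Nr2f2 d/d replicate 3 is blue for all 9 genes, most strongly for Acod1.

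Genes with the nearest pattern over the 8 libraries were sought among all genes tested, by the mean absolute difference of standardised log2 levels. The nearest to Sox17 was Ctsd, which encodes the lysosomal protease cathepsin D, at 0.0979, and to Gata2 it was Ank at 0.107. Fkbp5 was nearest to Tmem94 at 0.127, Alox15 to the immediate early gene Junb at 0.178, Tsc22d3 to Wdr60 at 0.191 and Il13ra2 to Brd9 at 0.207. Acod1 was nearest to Npepps at 0.232, Sgk1 to Lars2 at 0.245 and Fkbp4 to Serinc3 at 0.264. A closer nearest gene was found for 11.8% of all genes tested in the case of Sox17, 17.7% for Gata2 and 31.7% for Fkbp5, but for 66.8% for Alox15, 74.0% for Tsc22d3, 81.5% for Il13ra2, 89.5% for Acod1, 92.6% for Sgk1 and 95.5% for Fkbp4, so that the last 6 lay farther from any other gene than most genes do. None of the 9 was among the 2 nearest genes of another.

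The bases before RefSeq transcript starts (GRCm38.p6) were read for the response element that progesterone and corticosteroid receptors share. Windows of 250 bases were found for 7 of the 9 genes, 15 windows in all, and for neither Sox17 nor Alox15. The inverted repeat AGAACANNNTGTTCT, searched on both strands, was in 1 of these windows, a start inside Sgk1 at chr10:21993640-21993889 on the plus strand, 189 to 175 bases before the start, and in 0.00913% of all 32851 windows of that length. Its arm TGTTCT, which also matches inside the repeat, was in 4 of the 15 windows and in 16.1% of all, AGGTCA, the arm that nuclear receptors such as NR2F2 bind, in 3 and in 14.0%, and GGGTCA in 4 and in 11.6%. Sgk1 has several starts and gave most of the windows with TGTTCT and with AGGTCA. Those with GGGTCA belonged to Gata2, Sgk1 and Tsc22d3. The counts are thus of windows and are not spread evenly over the 7 genes. The Sgk1 window is shown for its repeat, and those of Fkbp5 (chr17:28486150-28486399, minus strand), another classical corticosteroid target, and Il13ra2 (chrX:147429193-147429442, minus strand), the gene with the lowest log2 fold change of the 9, because they hold none of these motifs. Each runs 5′ to 3′ toward the start, with matches on either strand in capitals.
Sgk1: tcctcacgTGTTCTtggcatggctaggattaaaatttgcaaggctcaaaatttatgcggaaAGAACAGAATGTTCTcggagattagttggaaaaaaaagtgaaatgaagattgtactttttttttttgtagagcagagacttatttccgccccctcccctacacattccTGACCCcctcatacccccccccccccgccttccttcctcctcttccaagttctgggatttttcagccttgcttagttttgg
Fkbp5: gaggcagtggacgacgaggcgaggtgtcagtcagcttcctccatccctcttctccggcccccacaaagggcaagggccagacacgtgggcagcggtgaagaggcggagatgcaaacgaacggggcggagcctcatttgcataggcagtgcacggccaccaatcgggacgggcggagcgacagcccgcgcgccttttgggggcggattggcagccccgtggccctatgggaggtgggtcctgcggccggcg
Il13ra2: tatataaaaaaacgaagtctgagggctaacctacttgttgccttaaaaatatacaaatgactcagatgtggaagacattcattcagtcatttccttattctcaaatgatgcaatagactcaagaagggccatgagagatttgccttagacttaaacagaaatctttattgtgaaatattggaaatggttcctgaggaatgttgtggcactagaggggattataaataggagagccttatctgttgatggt
A match describes the letters only, and no binding was measured.

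Other genes of the same pathways were read from lists, and pairs of FPKM are the means of Nr2f2 f/f and then of Nr2f2 d/d, 4 mice each. Counts past the adjusted threshold are to be read against 2.62% of all genes tested. Counts at an unadjusted p under 0.05 are to be read against 21.2%. The progesterone receptor Pgr was at 17.5, 11.4, 26.0 and 22.2 FPKM in the Nr2f2 f/f uteri and at 33.9, 27.1, 23.8 and 20.7 FPKM in the Nr2f2 d/d uteri. Nr2f2 d/d replicates 1 and 2 lay above all controls and the groups overlapped, with a log2 fold change of 0.48 (95% interval -0.10 to 1.07, adjusted p = 0.318, limma). Of 4 steroid receptor genes tested, with a median log2 fold change of 0.361, 0 passed the adjusted threshold and 2 had an unadjusted p under 0.05, among them the estrogen receptor gene Esr1 (33.5 and 41.8 FPKM, adjusted p = 0.151, limma).

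Epithelial targets of progesterone other than the 9 lay mostly below 0. Of 9 such genes, 7 were below 0 and 2 above, with a median log2 fold change of -0.399, and 0 passed the adjusted threshold while 3 had an unadjusted p under 0.05. The smallest p values were those of Fst, the gene of the activin antagonist follistatin, at 10.6 and 5.40 FPKM (log2 fold change -0.92, adjusted p = 0.0783, limma), and of the calcitonin gene Calca, at 2.06 and 0.579 FPKM (log2 fold change -1.15, adjusted p = 0.0989, limma). The third, on the other side of 0, was the mucin gene Muc1, named after its values were seen, at 18.1 and 43.8 FPKM (log2 fold change 1.15, adjusted p = 0.106, limma). Some signs in this list were not stable. With 1 library left out, Ihh ranged from -0.96 to 0.20, Lrp2 from -1.18 to 0.66 and Hdc from -0.31 to 0.77. Areg, Calca, Cyp26a1, Fst and Errfi1 stayed below 0 and Muc1 above. Without the 2 libraries that stood apart Errfi1 was at 0.06. Of 10 stromal targets, 8 were below 0, their median was -0.407 and 5 had an unadjusted p under 0.05, among them, above 0, Bmp2, named after its values were seen, at 1.51 and 2.60 FPKM (adjusted p = 0.165, limma). One passed the adjusted threshold: Hand2, which restrains estrogen signaling from the stroma, fell from 50.9 ± 4.94 to 31.2 ± 5.36 FPKM (SD, n = 4 each, log2 fold change -0.71, adjusted p = 0.0388, limma). Hand2 stayed under the adjusted threshold in only 2 of the 8 fits that left out 1 library, with adjusted p up to 0.108 (limma).

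The chaperones around Fkbp4 were close to even. Of 18 genes of Hsp90 and its cochaperones, 0 passed the adjusted threshold and 0 had an unadjusted p under 0.05 in limma's test, 8 were above and 10 below 0, and their median log2 fold change was -0.02. The cyclophilin gene Ppid had the smallest p of them, at 52.8 and 46.2 FPKM (adjusted p = 0.285, limma), followed by that of the heat shock factor Hsf1, at 17.4 and 15.9 FPKM (adjusted p = 0.349, limma). Of 12 other FK506-binding proteins, 10 were above 0 (median 0.0911) and 0 passed, with 2 at an unadjusted p under 0.05. These were Fkbp1a, the main target of FK506, at 180.3 and 130.5 FPKM (adjusted p = 0.0721, and 0.0357 with quantile normalization, limma), and Fkbp7, at 24.4 and 36.7 FPKM (adjusted p = 0.149, limma).

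Of 20 other genes that respond to corticosteroids, 9 were above and 11 below 0 with a median of -0.147. Of these, 0 passed the adjusted threshold and 5 had an unadjusted p under 0.05, as did 21.2% of all genes tested. Zbtb16, which encodes the zinc-finger factor PLZF, was at 9.65 and 5.28 FPKM (adjusted p = 0.129, limma) and Klf9, a Krüppel-like factor that binds PGR, at 21.1 and 15.6 FPKM (adjusted p = 0.156, limma), and both are also counted among the stromal targets. Hsd11b2, which encodes an enzyme that inactivates corticosteroids and was named after its values were seen, was on the other side of 0, at 153.8 and 314.9 FPKM (log2 fold change 1.04, adjusted p = 0.163, limma).

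Among 12 paralogs of the 9 genes, Sox18, an endothelial factor of the same family as Sox17, fell from 37.4 ± 4.16 to 21.9 ± 3.61 FPKM (SD, n = 4 each, log2 fold change -0.77, standard error 0.131, adjusted p = 0.0281, limma), with no overlap between the groups. It passed in 2 of the 8 fits that left out 1 library, with adjusted p up to 0.0876 (limma). Of 8 endothelial markers 5 fell, Pecam1, Cdh5, Kdr, Emcn and Erg. Emcn did not pass without the 2 libraries that stood apart (adjusted p = 0.0570), nor Kdr with median-ratio or quantile scaling (0.0508 and 0.0519, limma), and each passed in 2 of the 8 fits that left out 1 library, against 4 for Pecam1, 5 for Cdh5 and 4 for Erg (adjusted p up to 0.0707, 0.0609 and 0.0731, limma). Their part in the Sox18 result was not tested. The other 11 paralogs did not pass, and the median of the 12 was 0.144. Of 8 interleukin 13 pathway genes tested (median -0.0762), 0 passed and 3 had an unadjusted p under 0.05. The signaling receptor gene Il4ra was at 13.2 and 24.3 FPKM (adjusted p = 0.0815, and 0.0446 without the 2 libraries that stood apart, limma) and Socs1, which encodes an inhibitor of cytokine signaling, at 8.09 and 12.98 FPKM (adjusted p = 0.172, limma). The third, the kinase gene Jak1, named after its values were seen, was at 54.3 and 41.8 FPKM (adjusted p = 0.178, limma), and 5 of the 8 genes were below 0. Of 7 lipoxygenase pathway genes tested (median 0.129), 0 passed and 0 had an unadjusted p under 0.05 in limma's test; the smallest p values were those of Ephx2 (adjusted p = 0.257) and Alox5ap (adjusted p = 0.292). Of 9 genes of the itaconate pathway and its neighbours (median 0.000923), 0 passed and 1 had an unadjusted p under 0.05, with Sdhb, a subunit of succinate dehydrogenase, at 60.7 and 71.4 FPKM (adjusted p = 0.192, limma) and Suclg1 at 36.8 and 41.8 FPKM (adjusted p = 0.239, limma).

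**Figure D4:**
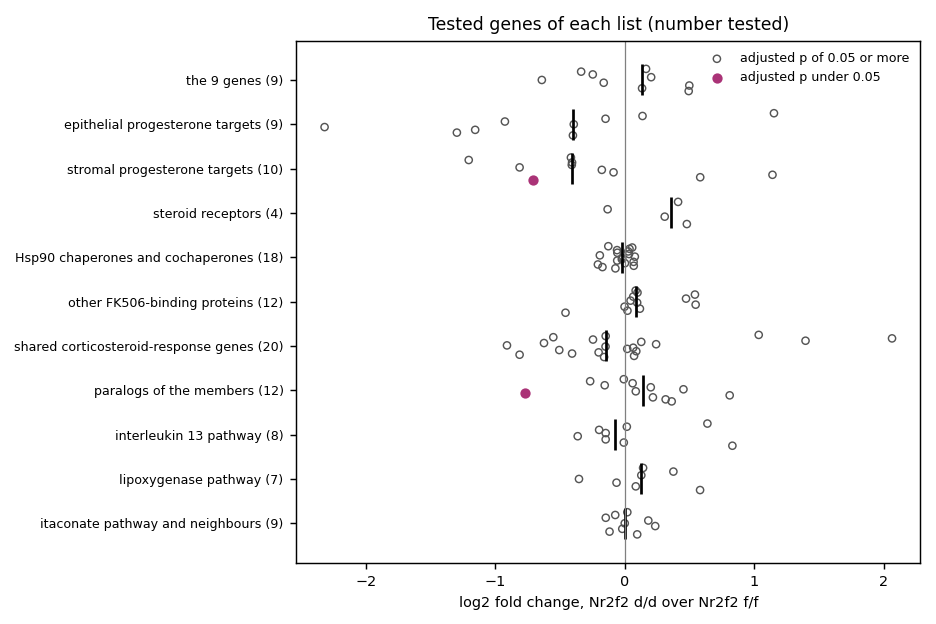
Log2 fold change of Nr2f2 d/d over Nr2f2 f/f for each tested gene of the 9 genes and of 10 lists, with the number of genes tested beside each name; black bars are medians, open circles genes with an adjusted p of 0.05 or more in limma's test, and filled circles genes under 0.05. Hand2 among the stromal targets and Sox18 among the paralogs are the filled circles.

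Markers of the cell types in the tissue moved as follows. Their counts, too, are to be read against 2.62% of all genes tested past the adjusted threshold and 21.2% at an unadjusted p under 0.05. Of 12 epithelial markers 2 rose, Krt8 and Elf3, and all 12 were above 0. Krt8 passed in all 8 fits that left out 1 library and Elf3 in 2 of them (adjusted p up to 0.112), and without the 2 libraries that stood apart Krt7 passed too (adjusted p = 0.0430, limma). Of 8 stromal markers Dcn rose, passing in 4 of the 8 fits that left out 1 library (adjusted p up to 0.0663, limma), 5 were above and 3 below 0, and the sums of 1620 to 1840 FPKM in the Nr2f2 f/f uteri and 2250 to 4490 in Nr2f2 d/d were carried by Dcn and the collagens, while Vim was at 379.5 and 237.1 FPKM (adjusted p = 0.113, limma). Of 7 gland markers Spink1 fell, with an adjusted p of 0.0292 that was 0.06001 without the 2 libraries that stood apart and passed in 2 of the 8 fits that left out 1 library (limma). Of 7 smooth muscle, 8 macrophage, 2 eosinophil, 3 neutrophil, 4 mast cell, 5 lymphocyte and NK cell and 3 oviduct and ovary markers tested, 0 passed the adjusted threshold in limma's test, while 0, 1, 0, 2, 0, 3 and 1 of them had an unadjusted p under 0.05. Without the 2 libraries that stood apart Gzma, a marker of NK cells, passed (adjusted p = 0.0446, limma). Neutrophil marker sums were 3.06 to 16.9 FPKM in the Nr2f2 f/f uteri and 18.1 to 42.1 in Nr2f2 d/d, and those of lymphocytes and NK cells 22.1 to 35.4 and 38.1 to 206. The part of these markers in the values of the 9 genes was not tested.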

How the data were processed

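RNA was extracted with TRIzol and libraries were made with the TruSeq RNA kit v2. The submitters' processing notes name cutadapt 1.12, STAR 2.5.2b, featureCounts 1.5.0-p1, Subread, Cufflinks 2.0.2 and mm10. The authors trimmed, aligned and counted paired-end reads and deposited FPKM for 24963 genes, of which 3893 were at 0 in all 8 libraries. The gene annotation, the strand setting and the FPKM formula are not given in the sources used here, and the authors' DESeq2 test on counts could not be repeated on FPKM. FPKM are relative to a library's total, so a change in very abundant transcripts shifts the others. Groups came from the labels, and 0 columns of values were left unmatched.

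The 14323 genes whose mean reached 0.5 FPKM were compared on log2(FPKM + 0.5) with limma 3.58.1 in R 4.3.3 (lmFit, then eBayes with trend; two-sided p), and p was adjusted by the Benjamini-Hochberg method over all of them. Fold changes on this scale understate those of low genes. Intervals are 95% intervals of limma. For single values, exact permutation tests (two-sided) ran over 70 arrangements (SciPy 1.17.1, Python 3.11.15). The fit was tested on simulated data. The p-values measure the spread between these 8 mice.

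The 9 genes and the lists, written from general knowledge, were chosen with earlier results of these data known. Named besides the 9, by rule, were Nr2f2, Pgr, the genes of each pathway list past the adjusted threshold or else the 2 with the smallest p, and the nearest neighbours. One gene that the rule names is not reported here. Cell type lists were given by counts and sums, naming genes past the threshold and markers at 0. Vim, Krt7, Cldn3, Gzma, Ihh, Areg, Lrp2, Hdc, Cyp26a1, Errfi1 and the gland markers other than Spink1 are named outside the rule and were chosen after their values were seen. Library totals came from short single-exon genes, where 97.7% to 98.9% of values were whole fragments within 0.1, against medians of 11.1% to 13.7% at other totals. Gene positions are from GENCODE vM21 (mm10) and sequences from RefSeq (GRCm38.p6). The alternatives were other added values, filters, scalings, eBayes settings and call rules, replicate blocks and each library left out. Leaving out both libraries that stood apart was added after seeing the data.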

Additional observations from a re-analysis of the deposited data

Results flagged for a closer look

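Sox17 in Nr2f2 d/d replicate 3, at 34.1 FPKM, lay far below the other 3 Nr2f2 d/d mice, and its gap to the nearest of them exceeded Dixon's 95% critical value for 4 samples. It was 1 of 30 groups of libraries screened in this way, and chance gives about 1 in 20.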

How the results depend on the processing

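Of the 19 alternatives, 5 leave every fold change as it is by construction, and in the other 14, which give 126 refits of the 9 log2 fold changes, 114 kept their direction and 12 reversed. In limma's fits 0 of the 9 genes had an adjusted p under 0.05 under any of the 19, the lowest being 0.136. Without the 2 libraries that stood apart, and with the replicate block by the numbers of the sample descriptions, which fits the same 6 libraries, Acod1 was at 0.32 and Tsc22d3 at 0.12. With each library left out in turn, Gata2 ranged from 0.15 (without f/f replicate 2) to 0.77, Fkbp4 from 0.11 to 0.31, Fkbp5 from -0.43 to -0.03 (without d/d replicate 3), Tsc22d3 from -0.49 to -0.07, Sox17 from -0.18 to 0.49 (below 0 without Nr2f2 f/f replicate 2 or d/d replicate 2), Alox15 from -0.11 to 1.02 (below 0 without f/f replicate 2), Acod1 from -0.64 to 0.73 (above 0 without f/f replicate 3 or d/d replicate 3) and Sgk1 from -0.22 to 0.53 (below 0 without f/f replicate 1, d/d replicate 1 or d/d replicate 2). Relative to epithelial markers, in the same fits, Gata2 ranged from -0.46 to 0.25 (above 0 without f/f replicate 3, f/f replicate 4 or d/d replicate 3), Alox15 from -0.71 to 0.42 (above 0 without f/f replicate 1, f/f replicate 4, d/d replicate 1 or d/d replicate 3), Sox17 from -0.79 (without f/f replicate 2) to -0.02 (without d/d replicate 3), Acod1 from -1.24 to 0.23 (above 0 without d/d replicate 3) and Il13ra2 from -1.45 to -1.09, with an exact permutation p of 0.0571 each time, the smallest that 3 against 4 allows. The cause of the reversals was not tested.

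Over all genes, 375 had an adjusted p under 0.05 and 1260 met the study's threshold. The first count ranged from 42 to 348 with 1 library left out: leaving out Nr2f2 f/f replicate 1 gave 62, replicate 3 gave 208 and replicate 4 gave 95, and leaving out Nr2f2 d/d replicate 1 gave 57 and replicate 2 gave 42. It was 1 with the replicate block by title number and 0 with that by description number, where 3188 genes had an unadjusted p under 0.05. Deviations of same-numbered mice from their group means had correlations of -0.204 to 0.0452 by title and -0.204 to 0.149 by description. Over all pairs of an Nr2f2 f/f and an Nr2f2 d/d mouse these ran from -0.321 to 0.279. With so few mice the correlations cannot decide whether the numbers pair them. Neither block gave any of the 9 genes an adjusted p under 0.05, and with that by description number Il13ra2, at -0.44 with an unadjusted p of 0.147 (limma), no longer met the study's threshold. With median-ratio scaling 191 of 376 genes were higher, against 156 of 375. Each of the 9 genes had an estimated 1510 fragments or more in every library.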
